A study of Mus musculus with 12 samples.

Results

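Metallothioneins and the carriers that move zinc and manganese across liver cell membranes were described here as 8 genes: Mt1, Mt2, Mtf1, Slc30a1, Slc30a10, Slc39a4, Slc39a5 and Slc39a1. They were chosen by symbol, and each was found by its Ensembl identifier among the 27022 genes of the count table, so that all 8 members were measured. RNA came from the liver of 6 female SJL/J mice aged 11 weeks. All mice were given an AIN-93G control diet with 50 ppm iron from 3 weeks of age. The 3 control mice stayed on it, and the 3 iron-loaded mice were moved at 6 weeks of age to an AIN-93G diet with 2% carbonyl iron. Each diet was 1 cage of 4 mice, and the effects of cage and diet cannot be told apart. RNA from 20 mg of the large liver lobe of each mouse was made into 1 library with a whole-transcript kit, KAPA Stranded mRNA-Seq (Trad-KAPA), and 1 library with a kit that reads the 3’ ends of transcripts, QuantSeq (3’-LEXO), with 1 µg of RNA per library. The kits therefore share the mice and are not independent replicates of the diet.

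Metallothioneins are small, cysteine-rich proteins that bind zinc and copper in the cytosol, and the liver is a main site of their synthesis. Their genes, and the zinc exporter gene Slc30a1, are switched on by the zinc-sensing transcription factor MTF1, which binds metal response elements in DNA, and metallothionein genes also answer glucocorticoids and inflammation. Proteins of the SLC30 (ZnT) family carry metal out of the cytosol and proteins of the SLC39 (ZIP) family carry it in. SLC30A10 carries mainly manganese, which hepatocytes pass into bile.

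Mt2 (chr8:94172664-94173568) and Mt1 (chr8:94179082-94180327) lie close together on the plus strand in GRCm38. Mtf1 lies at chr4:124802104-124849800 on the plus strand. Both ZnT genes are on the plus strand of chromosome 1, Slc30a10 at chr1:185454848-185468762 and Slc30a1 at chr1:191906767-191913247. The ZIP genes are at chr15:76612383-76617384 (Slc39a4, minus strand), chr10:128395931-128401229 (Slc39a5, minus strand) and chr3:90248172-90253612 (Slc39a1, plus strand). All 8 are annotated as protein coding. Their merged exons span from 588 bases in Mt2 and 1246 in Mt1 to 5244 in Slc30a1, 5836 in Slc30a10 and 8907 in Mtf1.

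The promoters of the metallothionein and ZnT genes are shown because MTF1 acts through short elements near the start of transcription. Promoter sequences, 250 bases before to 50 after the start, were taken from RefSeq on GRCm38.p6, and 7 of the 8 members had an entry. The exception was Slc39a4. Capitals mark every match, on either strand, to the metal response element cores TGCACNC and TGCGCNC.
Mt1, chr8:94178839-94179138, plus strand: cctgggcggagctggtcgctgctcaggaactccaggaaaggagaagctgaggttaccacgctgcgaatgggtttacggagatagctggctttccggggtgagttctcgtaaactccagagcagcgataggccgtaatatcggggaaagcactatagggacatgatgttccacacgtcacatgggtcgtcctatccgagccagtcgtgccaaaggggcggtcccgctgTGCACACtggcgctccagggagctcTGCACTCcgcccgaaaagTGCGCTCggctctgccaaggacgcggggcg
Mt2, chr8:94172368-94172667, plus strand: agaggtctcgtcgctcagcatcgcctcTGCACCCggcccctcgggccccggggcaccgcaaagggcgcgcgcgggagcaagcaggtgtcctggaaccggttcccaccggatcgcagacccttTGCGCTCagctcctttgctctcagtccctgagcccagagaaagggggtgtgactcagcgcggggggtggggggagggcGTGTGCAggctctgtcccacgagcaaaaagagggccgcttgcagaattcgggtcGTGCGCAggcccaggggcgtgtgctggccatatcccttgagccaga
Slc30a1, chr1:191906531-191906830, plus strand: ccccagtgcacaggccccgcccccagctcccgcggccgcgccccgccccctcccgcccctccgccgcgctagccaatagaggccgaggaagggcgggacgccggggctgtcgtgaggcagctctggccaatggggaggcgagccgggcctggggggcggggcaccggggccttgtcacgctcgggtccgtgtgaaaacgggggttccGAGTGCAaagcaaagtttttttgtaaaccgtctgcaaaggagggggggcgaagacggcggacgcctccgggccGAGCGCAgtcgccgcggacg
Slc30a10, chr1:185454598-185454897, plus strand: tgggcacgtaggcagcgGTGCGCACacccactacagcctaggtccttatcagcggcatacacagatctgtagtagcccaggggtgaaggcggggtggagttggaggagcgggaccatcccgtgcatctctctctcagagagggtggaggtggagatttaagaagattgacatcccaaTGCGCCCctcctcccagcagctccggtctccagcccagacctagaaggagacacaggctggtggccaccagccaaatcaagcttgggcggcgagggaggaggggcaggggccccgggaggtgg

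The Mt2 promoter held 4 core matches, and 0.518% of 32851 mouse promoter windows held at least 4. The Mt1 promoter held 3 matches, of which 2 lie after the start that its window uses. The Slc30a10 promoter also held 3, but 2 of them are the same stretch read on opposite strands. At least 3 matches were present in 1.97% of all windows. Slc30a1 had 2 matches, and 7.11% of windows held at least 2. Slc39a5, which has 2 annotated starts, had 1 match before the second start. Mtf1 and Slc39a1 had 0 matches, and 25.7% of all windows held at least 1. The antioxidant response element core TGACNNNGC, found in 12.4% of windows, had 1 match each in Mt2, Slc30a1 and Slc39a1, 2 in front of the first Slc39a5 start and 0 in the others. The STAT core TTCNNNGAA, found in 8.30% of windows, had 0 matches in these promoters. A match is a stretch of letters and not a measured binding site. Its place holds only for the start that the window uses, and sequence around other starts was not searched. Such starts can differ between annotations, since the Mt2 window ends at base 94172667 while the gene is annotated from base 94172664.

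The libraries held 13834682 to 16553616 counts in Trad-KAPA and 10724672 to 14104236 counts in 3’-LEXO. Reads that map to exons of overlapping genes could be assigned differently by different counting rules, and how strand was used in counting is not given in the sources used here. Of the 554 different 50-base stretches of Mt2, 45.85% also occur, in the opposite sense, in the antisense gene Gm45774, which had 10 to 25 reads in Trad-KAPA and 2 to 11 in 3’-LEXO. The same holds for 8.36% of Slc30a10 (Gm2061), 8.01% of Slc30a1 (1700034H15Rik) and 7.55% of Mtf1 (1110065P20Rik), and 21.8% of Slc39a1 occurs in the pseudogene Slc39a1-ps. Of these genes, 1110065P20Rik had 126 to 210 reads in Trad-KAPA and 364 to 588 in 3’-LEXO, beside 260 to 312 and 240 to 430 for Mtf1. No stretch of Mt1, Slc39a4 or Slc39a5 was shared. Ankrd52 overlaps the Slc39a5 locus on the other strand, with 785 to 1184 reads in Trad-KAPA and 23 to 49 in 3’-LEXO. Libraries of a kit and diet differed by more than counting noise, at a chi-square of 18.5 to 59.8 per degree of freedom, except that iron-loaded mice 2 and 3 were much closer to each other (5.98 in Trad-KAPA and 5.97 in 3’-LEXO). Control mouse 1 also stood apart, with 515 CPM (counts scaled to 1000000 per library) of the hepcidin gene Hamp in Trad-KAPA against 44.0 and 83.2 CPM in the other control mice. In Trad-KAPA, 4 of 6 tested genes of iron handling and of the pathway that regulates Hamp were called higher on the iron-loaded diet. They were Bmp6, Id1, Smad7 and Atoh8 (adjusted p under 0.05, edgeR), beside 17.1% of all genes tested. In 3’-LEXO 3 of 5 were called higher, Hamp, Smad7 and Atoh8, beside 6.1% of all genes tested. Hamp was not called in Trad-KAPA (log2 2.36, SE 0.77, adjusted p = 0.0667, edgeR), and Tfrc was called in neither kit.

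Slc30a10 was the member with the largest diet difference in both kits. In Trad-KAPA it had 61.6, 73.6 and 90.3 CPM in control mice 1, 2 and 3 and 38.5, 38.7 and 36.9 CPM in iron-loaded mice 1, 2 and 3. The iron-loaded mice differed from each other by far less than the control mice did (SD 0.988 against 14.4 CPM, n = 3 each). At 513 to 566 reads per library, the iron-loaded spread is no wider than counting noise alone would give. It also includes iron-loaded mice 2 and 3, the closest to each other over all genes. Every iron-loaded mouse was below every control mouse. Slc30a10 thus fell to 0.480 of the control level (log2 fold change −1.06, SE 0.16, adjusted p = 0.00647, edgeR quasi-likelihood test over 13151 genes), with a 95% interval of the fold from 0.372 to 0.619. In 3’-LEXO the values were 32.6, 50.2 and 62.0 CPM in the control mice and 32.2, 26.9 and 29.5 CPM in the iron-loaded mice. The diets again did not overlap, but control mouse 1 was only just above iron-loaded mouse 1. The 3’-LEXO fold was 0.585 (log2 −0.77, SE 0.23, 95% interval of the fold 0.412 to 0.831) and did not pass the threshold (adjusted p = 0.0720, edgeR over 13301 genes). Of the 6 fits with 1 mouse left out, 1 passed, that without control mouse 1 (log2 −1.003, adjusted p = 0.0307, edgeR). Without control mouse 3 the change was log2 −0.52 (adjusted p = 0.210, edgeR). Over the 12 alternatives the adjusted p ranged from 0.000338 to 0.210, with 3 past the threshold. In Trad-KAPA all 12 alternatives passed, with adjusted p from 9.31e-07 to 0.0287. In bulk liver, fewer cells that express a gene and less RNA per cell cannot be told apart.

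Slc30a1 encodes the zinc exporter of the plasma membrane (ZnT1). In Trad-KAPA it had 79.4, 75.2 and 68.0 CPM in the control mice and 149.4, 98.37 and 98.03 CPM in the iron-loaded mice. The diets did not overlap, and iron-loaded mouse 1 was well above the other two. Slc30a1 rose 1.47-fold (log2 0.56, SE 0.15, 95% interval of the fold 1.16 to 1.88, adjusted p = 0.0397, edgeR). This call was close to the threshold. It was lost without control mouse 1, 2 or 3 (adjusted p = 0.0912, 0.110 and 0.121), without iron-loaded mouse 2 or 3 (0.0540 and 0.0501) and with these mice summed as 1 sample (0.0520), while without iron-loaded mouse 1 it held at a smaller log2 change of 0.37 (adjusted p = 0.0170). The fit without iron-loaded mouse 1 rests on iron-loaded mice 2 and 3, the closest to each other over all genes. The other 5 alternatives passed. In 3’-LEXO Slc30a1 had 103, 121 and 91.4 CPM in the control mice and 184, 113 and 121 CPM in the iron-loaded mice. There the diets overlapped, with iron-loaded mouse 1 again the highest of the 6 mice. The log2 change was 0.34 (SE 0.19, adjusted p = 0.285), and 0.12 (SE 0.14) without iron-loaded mouse 1.

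**Figure D1:**
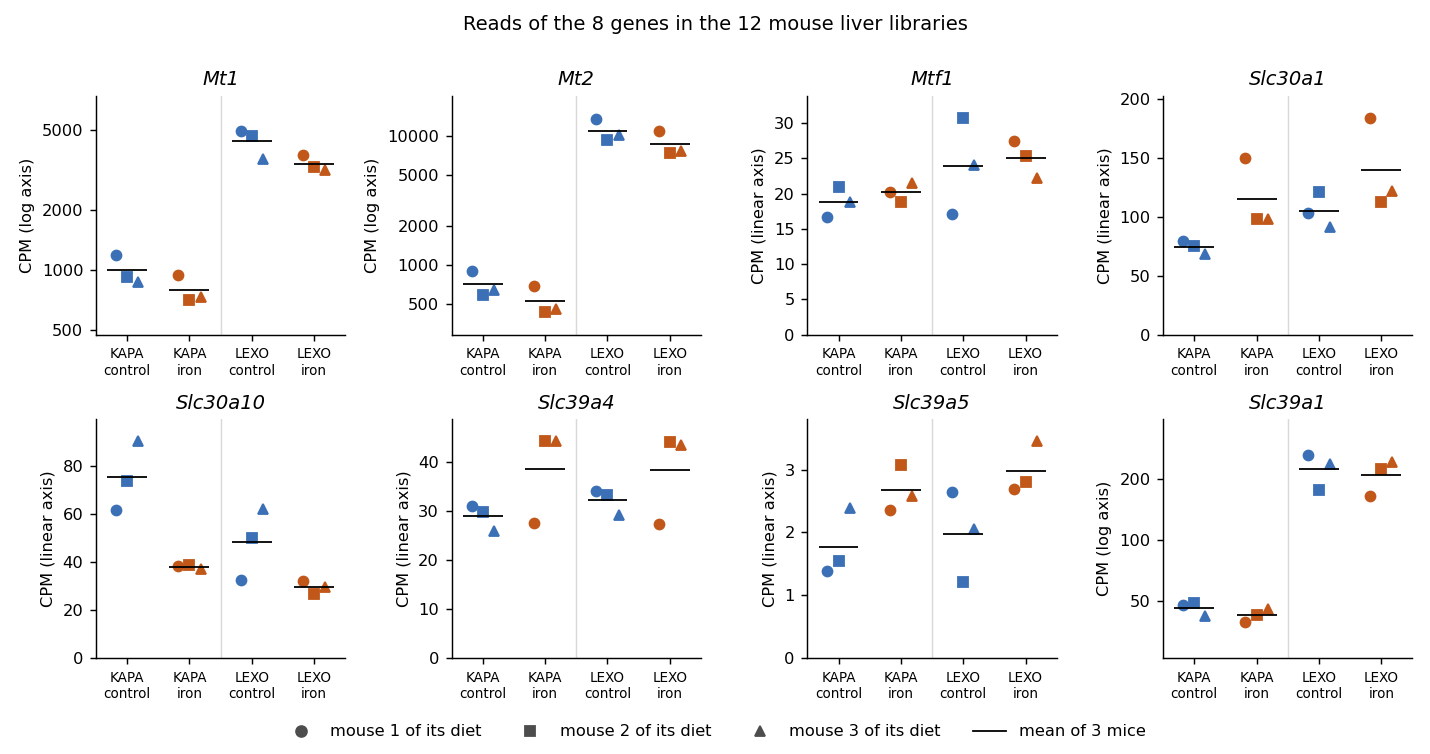
CPM (counts scaled to 1000000 per library) of each of the 8 genes in the 12 libraries, by kit and diet, with 1 symbol per mouse and a line at the mean of 3 mice. The axes of Mt1, Mt2 and Slc39a1 are logarithmic and the others are linear from 0. For Slc30a10 the 3 iron-loaded mice lie at 36.9 to 38.7 CPM in Trad-KAPA, below the control mice at 61.6 to 90.3 CPM, whereas for Slc39a4 iron-loaded mouse 1 lies apart from iron-loaded mice 2 and 3.

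Mt1 was lower on average in the iron-loaded mice, but the difference did not pass the threshold in either kit. In Trad-KAPA the control mice had 1193.5, 926 and 873.5 CPM and the iron-loaded mice 942, 711 and 729 CPM. In 3’-LEXO they had 4950, 4678 and 3584 CPM and 3750, 3293 and 3173 CPM. The diets overlapped in CPM in both kits, since iron-loaded mouse 1 was above 1 or 2 of the control mice. Scaled by the TMM library sizes that the test uses, they did not overlap in either kit, with control minima of 932 and 3817 and iron-loaded maxima of 882 and 3553 in Trad-KAPA and 3’-LEXO. The log2 fold change was −0.40 (SE 0.15, adjusted p = 0.103, edgeR) in Trad-KAPA and −0.43 (SE 0.19, adjusted p = 0.191) in 3’-LEXO.

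Mt2 had 910, 584.5 and 641 CPM in the control mice and 688, 436 and 458 CPM in the iron-loaded mice in Trad-KAPA. In 3’-LEXO it had 13514, 9300 and 10155 CPM and then 10929, 7399 and 7670 CPM, so that the order of the 6 mice was the same in both kits, from control mouse 1 over iron-loaded mouse 1 and control mice 3 and 2 to iron-loaded mice 3 and 2. The log2 fold change was −0.51 (SE 0.21, adjusted p = 0.124, edgeR) in Trad-KAPA and −0.41 (SE 0.24, adjusted p = 0.312) in 3’-LEXO. Without iron-loaded mouse 1, both metallothionein genes passed in Trad-KAPA (Mt1 log2 −0.50, adjusted p = 0.0309, and Mt2 log2 −0.71, adjusted p = 0.0224), and neither passed in 3’-LEXO (adjusted p = 0.131 and 0.111). The fit without iron-loaded mouse 1 rests on iron-loaded mice 2 and 3, which were the closest to each other over all genes. With those mice summed as 1 sample, Mt1 and Mt2 had adjusted p of 0.269 and 0.292 in Trad-KAPA (edgeR). Without control mouse 1 the Trad-KAPA changes were smaller, at −0.27 for Mt1 and −0.31 for Mt2.

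Genes that respond to glucocorticoids or inflammation also differed between the mice. The summed level of 7 glucocorticoid targets was 710 to 836 CPM in the control mice, 2499 CPM in iron-loaded mouse 1 and 1185 and 1202 CPM in iron-loaded mice 3 and 2 in Trad-KAPA. Of these targets, 2 were called higher and 0 lower in each kit, beside 17.1% and 6.1% of all genes tested in Trad-KAPA and 3’-LEXO. They were Per1 and Sgk1 in Trad-KAPA and Sgk1 and Tat in 3’-LEXO. Most reads of the sum were those of Tat, which was not called in Trad-KAPA (log2 0.87, SE 0.30, adjusted p = 0.0808, edgeR). Of 11 acute phase genes, 2 were called higher (Lcn2 and Apcs) and 2 lower in each kit. The lower ones were the serum amyloid genes Saa1 and Saa2, which fell by 3.48 and 3.59 on the log2 scale in Trad-KAPA and fell by 3.07 and 3.22 in 3’-LEXO (adjusted p = 0.0123, 0.00988, 0.0208 and 0.0155, edgeR). The acute phase list, most of whose reads were those of Fgb and Hp, had a summed level of 7415 to 9966 CPM in the control and 9061 to 9430 CPM in the iron-loaded mice in Trad-KAPA. In 3’-LEXO the targets summed to 500 to 622 CPM and 934 to 1578 CPM, and the acute phase genes to 12038 to 19861 CPM and 12865 to 13599 CPM. Control mouse 1, the highest for Mt1 and Mt2 in both kits, also had the highest acute phase sum in both. For the summed glucocorticoid targets, control mouse 1 was the highest control mouse in Trad-KAPA and control mouse 3 in 3’-LEXO. Iron-loaded mouse 1 had the highest sum of these targets in both kits (2499 and 1578 CPM). It was also the highest iron-loaded mouse for Mt1 and Mt2. Its acute phase sum was the lowest of the iron-loaded mice in Trad-KAPA (9061 CPM) and the middle one in 3’-LEXO (13232 CPM). Control mouse 3 had the lowest acute phase sum in both kits, with less Mt1 but more Mt2 than control mouse 2. The part of these genes’ regulators in the metallothionein values was not tested.

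Mtf1, which encodes the zinc-sensing factor, differed little between the diets. It had 16.7, 20.9 and 18.8 CPM in the control mice and 20.3, 18.9 and 21.5 CPM in the iron-loaded mice in Trad-KAPA. In 3’-LEXO the values were 17.2, 30.8 and 24.0 CPM and 27.5, 25.4 and 22.3 CPM. The diets overlapped in both kits. The log2 change was 0.03 (95% interval −0.25 to 0.32, adjusted p = 0.872, edgeR) in Trad-KAPA and 0.00 (95% interval −0.44 to 0.45, adjusted p = 0.992) in 3’-LEXO, and its sign depended on the mice and settings used.

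**Figure D2:**
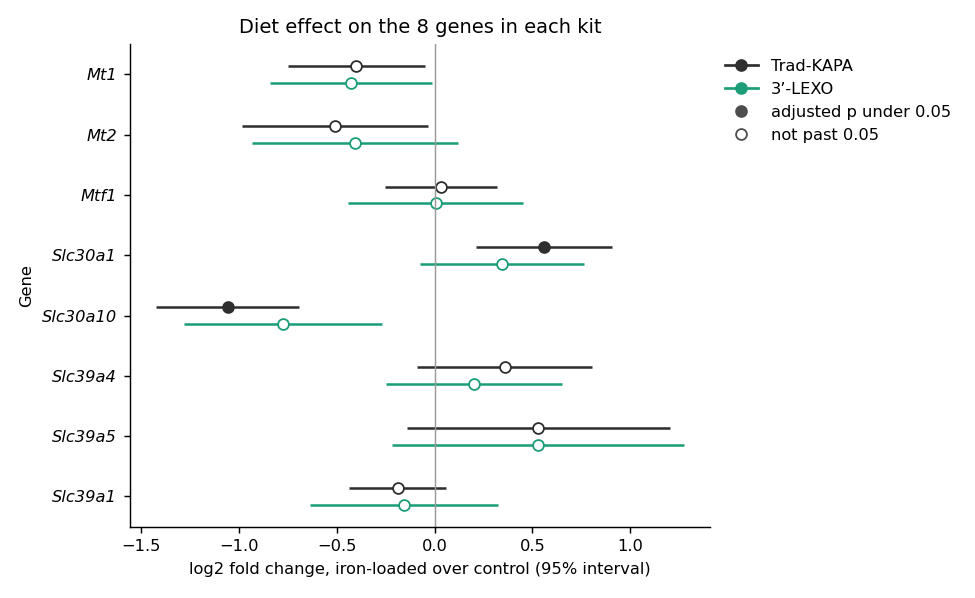
log2 fold change between iron-loaded and control mice for each gene and kit, with the 95% interval from edgeR. Filled points have an adjusted p under 0.05, which holds for Slc30a1 (0.56) and Slc30a10 (−1.06) in Trad-KAPA and for no gene in 3’-LEXO.

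Of the zinc importers, Slc39a4 (ZIP4), the carrier of dietary zinc uptake in the intestine, had its iron-loaded mice far apart. In Trad-KAPA the control mice had 31.1, 29.8 and 25.9 CPM, and the iron-loaded mice 27.4, 44.2 and 44.2 CPM. In 3’-LEXO they had 34.01, 33.3 and 29.1 CPM and 27.3, 44.1 and 43.4 CPM. In both kits iron-loaded mice 2 and 3 were above all control mice, and iron-loaded mouse 1 was within or below them. The log2 change was 0.36 (SE 0.20, adjusted p = 0.2345, edgeR) in Trad-KAPA and 0.20 (SE 0.20, adjusted p = 0.568) in 3’-LEXO. Without iron-loaded mouse 1 it was 0.58 in Trad-KAPA, where it passed (adjusted p = 0.00393), and 0.41 in 3’-LEXO, where it did not (adjusted p = 0.0975), but that fit rests on the pair of mice that were closest to each other over all genes.

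Slc39a1 (ZIP1) had 48.2, 49.3 and 42.5 CPM in the control mice and 39.5, 43.0 and 46.1 CPM in the iron-loaded mice in Trad-KAPA. In 3’-LEXO it had 263, 177 and 237 CPM and 165.5, 224.5 and 242 CPM. The diets overlapped in both kits, and the log2 changes of −0.19 (SE 0.11, adjusted p = 0.255, edgeR) and −0.16 (SE 0.21, adjusted p = 0.6925) did not pass. Slc39a5 (ZIP5), a basolateral zinc carrier of intestine and pancreas, was close to the lower limit of what could be measured, with 23 to 45 reads per library in Trad-KAPA and 17 to 38 in 3’-LEXO. Its values were 1.39, 1.54 and 2.39 CPM in the control and 2.36, 3.07 and 2.59 CPM in the iron-loaded mice in Trad-KAPA, and 2.64, 1.22 and 2.06 CPM and 2.68, 2.80 and 3.45 CPM in 3’-LEXO. The diets overlapped in Trad-KAPA and were just apart in 3’-LEXO. Its log2 change was 0.53 in each kit, with an SE of 0.30 in Trad-KAPA and 0.33 in 3’-LEXO (adjusted p = 0.2385 and 0.355). Marker genes of pancreatic acinar cells, which express Slc39a5, were at 0 to 13 reads per library.

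Over the 8 members, 2 (25%) were called in Trad-KAPA, 1 higher and 1 lower, where 17.1% of the 13151 genes tested were called. In 3’-LEXO 0 of 8 were called, where 6.1% of 13301 genes were. At an unadjusted p under 0.05 there were 4 members in Trad-KAPA (Mt1, Mt2, Slc30a1 and Slc30a10) and 2 in 3’-LEXO (Mt1 and Slc30a10). The diets did not overlap in CPM for 2 of 8 members in each kit, Slc30a1 and Slc30a10 in Trad-KAPA and Slc39a5 and Slc30a10 in 3’-LEXO, and for 41.2% and 31.3% of all genes tested in these kits. Scaled by TMM library sizes, which was added after seeing the data, there were 3 such members in Trad-KAPA (Mt1, Slc30a1 and Slc30a10) and 2 in 3’-LEXO (Mt1 and Slc30a10), while Slc39a5 overlapped, beside 41.9% and 31.5% of all genes. With 8 genes, these counts do not set the members apart from the background. Over all genes the scaling moved the split of the diets that did not overlap, from 3244 higher and 2177 lower to 2726 and 2783 in Trad-KAPA, and from 2467 and 1701 to 2119 and 2070 in 3’-LEXO. The median log2 change of the members was −0.08 in each kit, with 4 estimates above and 4 below 0, beside 0.02 and 0.01 over all genes. In absolute size the members’ median log2 change was 0.45 by Trad-KAPA and 0.38 by 3’-LEXO, beside 0.29 over all genes in each kit.

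**Figure D3:**
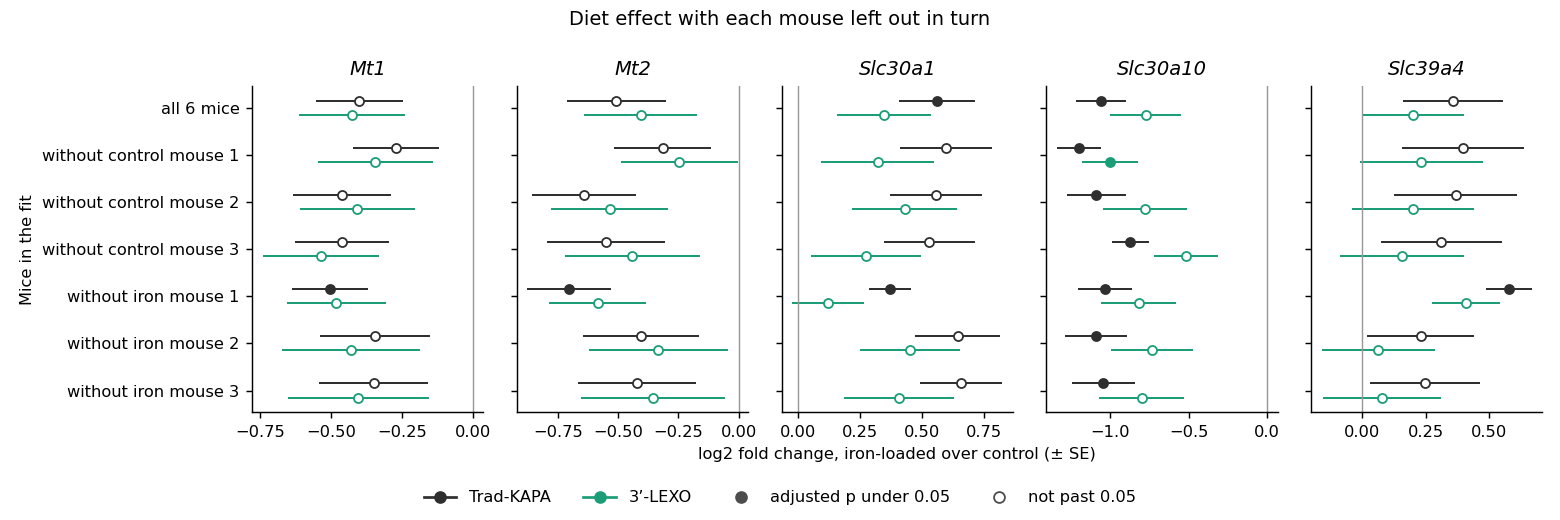
log2 fold change (± SE, edgeR) of 5 members with all 6 mice and with each mouse left out in turn, in both kits. Filled points have an adjusted p under 0.05. Slc30a10 is filled in every Trad-KAPA fit shown, whereas leaving out iron-loaded mouse 1 fills Mt1, Mt2 and Slc39a4 in Trad-KAPA and brings Slc30a1 down to 0.37.

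Of 24 other metallothionein, SLC30, SLC39 and manganese carrier genes in the table, 19 were tested in each kit. In Trad-KAPA 1 of them was called, beside 17.1% of all genes, Slc30a7, the zinc carrier of the Golgi apparatus, which went from 33.4 ± 2.60 to 47.1 ± 4.54 CPM (SD, n = 3; log2 0.42, SE 0.11, adjusted p = 0.0340, edgeR). In 3’-LEXO Slc30a7 had 13.6 ± 1.501 and 16.2 ± 1.72 CPM (log2 0.19, adjusted p = 0.489), and 0 of the 19 were called, beside 6.1% of all genes, by edgeR. The median log2 change of the tested genes was 0.13 by Trad-KAPA and 0.04 by 3’-LEXO. Mt3, the brain metallothionein, had at most 1 read in any library, and Slc30a2 and Slc30a8 had at most 2 and 1. Slc39a12 had 0 to 4 reads.

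Slc39a14 (ZIP14), which takes manganese and non-transferrin-bound iron into hepatocytes, was chosen for description after its values were seen. It had 396 ± 53.3 CPM in control and 480 ± 95.6 CPM in iron-loaded mice in Trad-KAPA (log2 0.21, SE 0.15, adjusted p = 0.361) and 108 ± 15.6 and 153 ± 22.7 CPM in 3’-LEXO (log2 0.45, SE 0.15, adjusted p = 0.108). Neither difference passed.

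**Figure D4:**
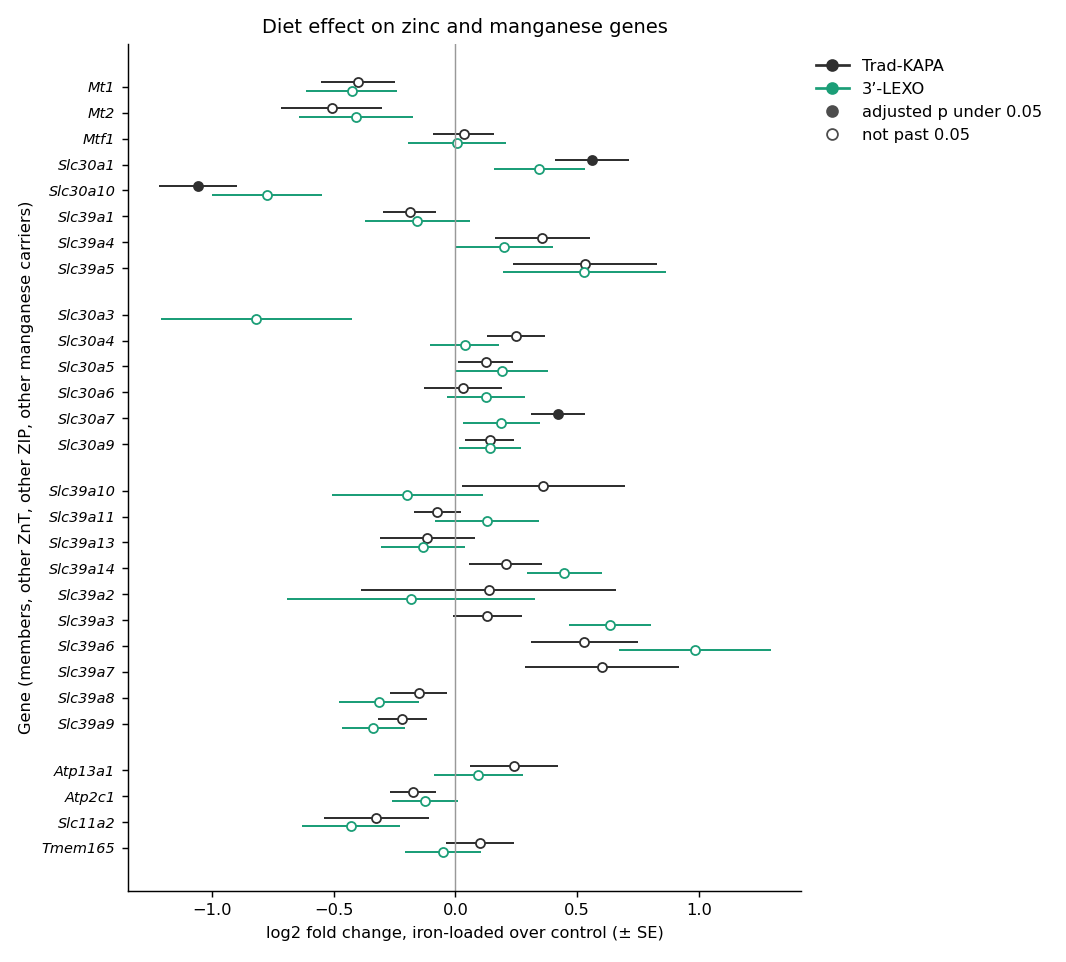
log2 fold change (± SE, edgeR) between iron-loaded and control mice for the 8 members and for every other ZnT, ZIP and manganese carrier gene that passed the filter on low counts in at least 1 kit. Filled points, with an adjusted p under 0.05, are Slc30a1, Slc30a10 and Slc30a7 in Trad-KAPA. In 3’-LEXO no point is filled.

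Markers of other liver cells were read beside these values. Over all genes tested, the share that passed was 17.1% by Trad-KAPA and 6.1% by 3’-LEXO. The marker lists are short, and their counts of calls were not tested against these shares. The summed level of 6 hepatocyte markers, the albumin gene among them, was 144427 to 156714 CPM in the control and 116010.5 to 155536 CPM in the iron-loaded mice in Trad-KAPA, with iron-loaded mouse 1 the lowest. In 3’-LEXO it was 59397 to 78122 CPM and 47399 to 68018 CPM. Of these markers 1 was called lower in Trad-KAPA and 0 in 3’-LEXO. Of 7 Kupffer cell markers, Trad-KAPA called 2 higher, Vsig4 and Marco (summed level 368 to 589 CPM in control against 664 to 724 CPM in iron-loaded mice), and 3’-LEXO called 1, Marco (873 to 1144 against 1150 to 1395 CPM). Marco alone went from 7.58 to 69.0 CPM on average in Trad-KAPA and from 19.4 to 144 CPM in 3’-LEXO. Clec4f, Cd5l, Adgre1, Csf1r and Cd68 passed in neither kit, and Adgre1 had log2 changes of 0.08 and −0.31. Of bile duct markers 1 of 3 tested, Spp1, was called higher in each kit, while Sox9 had log2 changes of −0.57 and −0.66 that did not pass (adjusted p = 0.106 and 0.0569) and Krt19 and Krt7 had at most 12 reads (sum 23.6 to 26.5 against 33.5 to 39.0 CPM, and 30.0 to 37.4 against 43.3 to 44.2 CPM). Neutrophil markers were called higher for 2 of 2 tested in Trad-KAPA and 2 of 3 in 3’-LEXO (1.01 to 1.75 against 4.00 to 7.45 CPM, and 7.66 to 17.4 against 27.6 to 58.7 CPM), while Ly6g was at 0 to 2 reads. Of 6 endothelial markers, 1 was called higher in each kit and 0 and 2 lower (279 to 369 against 310 to 380 CPM, and 336 to 417.5 against 287 to 297 CPM), and of 6 stellate cell markers 1 was lower in Trad-KAPA (264.5 to 379 against 339 to 356 CPM) and 0 in 3’-LEXO (506.5 to 529 against 461.5 to 510 CPM). Erythroid markers gave no call (16.98 to 133 against 14.1 to 25.6 CPM, and 118 to 896 against 86.3 to 151 CPM), nor did lymphocyte markers (2.67 to 5.07 against 3.42 to 5.10 CPM, and 1.70 to 3.57 against 2.00 to 3.26 CPM). The part of these cells in the values of Slc30a10 and Slc30a1 was not tested.

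The diet effects of the kits were then compared with each other. The interaction of diet and kit was called for 0 of 14384 genes (0.0%) by edgeR and for 0 by DESeq2, with 402 genes at an unadjusted p under 0.05, and each member had an adjusted p of 1.0. These fits had no term for the mouse, so their intervals do not use the pairing of the kits within mice. For Slc30a10 the log2 difference, 3’-LEXO minus Trad-KAPA, was 0.28 (95% interval −0.36 to 0.93), and for Slc30a1 it was −0.21 (95% interval −0.76 to 0.33). Mt1 and Mt2 differed by −0.03 (95% interval −0.51 to 0.46) and 0.10 (95% interval −0.60 to 0.80). With the mouse as a block, which uses that pairing, 5 genes (0.0348%) were called, none of them a member. Slc30a10 then had a log2 difference of 0.31 (95% interval 0.02 to 0.61, unadjusted p = 0.0379, adjusted p = 0.666, edgeR), and Slc30a1 had −0.22 (95% interval −0.47 to 0.03). The intervals of Mt1 and Mt2 in this fit were −0.26 to 0.21 and −0.12 to 0.32.

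The levels of most members differed between the kits, as did those of most genes. The same RNA gave 14.9 to 16.97 times as many Mt2 CPM in 3’-LEXO as in Trad-KAPA in the 6 mice, and 3.98 to 5.05 times as many Mt1 CPM. The ratio of Mt2 to Mt1 reads was 0.613 to 0.763 in Trad-KAPA and 1.99 to 2.91 in 3’-LEXO, so that Mt1 had more reads than Mt2 in every Trad-KAPA library and fewer in every 3’-LEXO library. Among all genes, Mt2 was between place 30 and place 51 in Trad-KAPA, ranked by CPM per kb of merged exons, and between place 4 and place 9 in 3’-LEXO, ranked by CPM.

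Among the other members, Slc39a1 had 3.59 to 5.575 times as many CPM in 3’-LEXO, Slc30a1 1.15 to 1.61 times and Mtf1 1.02 to 1.47 times. Slc30a10 had fewer in each of the 6 mice, at 0.529 to 0.837 of the Trad-KAPA CPM. Slc39a4 (0.981 to 1.12) and Slc39a5 (0.790 to 1.90) were on both sides of 1. With the mouse as a term, edgeR called 6 of the 8 members between the kits, 5 higher and 1 lower in 3’-LEXO, where 82.6% of all genes were called. The log2 differences were 4.01 (SE 0.06) for Mt2, 2.27 (SE 0.08) for Slc39a1, 2.13 (SE 0.06) for Mt1, 0.39 (SE 0.06) for Slc30a1, 0.32 (SE 0.08) for Mtf1 and −0.52 (SE 0.08) for Slc30a10. Slc39a4 (log2 0.07, 95% interval −0.06 to 0.21, adjusted p = 0.301) and Slc39a5 (log2 0.16, 95% interval −0.25 to 0.58, adjusted p = 0.451) did not pass.

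**Figure D5:**
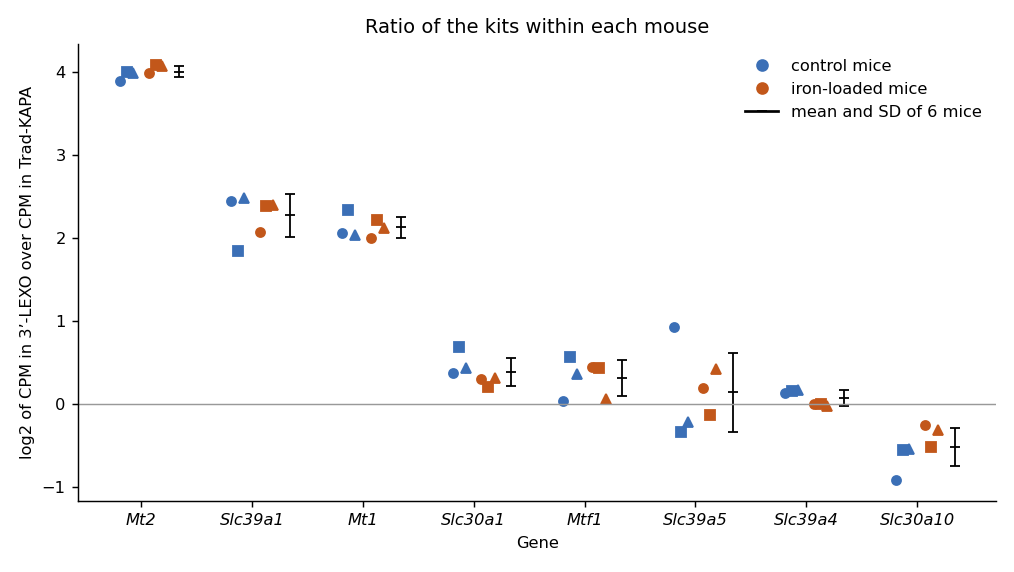
log2 ratio of CPM in 3’-LEXO over CPM in Trad-KAPA within each of the 6 mice, with the mean and SD at the right of each gene. Mt2 lies near 4 in every mouse with an SD of 0.07, and Slc30a10 lies below 0 in every mouse.

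Trad-KAPA counts grow with the length of a transcript, whereas 3’-LEXO reads start near its end. When the Trad-KAPA CPM were divided by the kb of merged exons and the 3’-LEXO CPM were left as they were, the ratio of the kits ranged from 2.45 in Slc39a5 to 11.4 in Slc39a1, instead of from 0.6975 in Slc30a10 to 16.0 in Mt2. On this scale the highest ratios were those of Slc39a1 (11.4), Mtf1 (11.1) and Mt2 (9.42), and that of Slc30a10 was 4.07.

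The order of the members’ levels was read from the Trad-KAPA CPM per kb of merged exons. In the control mice Mt2 was highest at 1211 ± 296 CPM per kb, followed by Mt1 at 801 ± 138, and the ranges of these genes over the 3 mice did not overlap. Slc39a1 came next at 19.7 ± 1.54, then Slc30a1 at 14.2 ± 1.11 and Slc30a10 at 12.9 ± 2.47, whose ranges overlapped. Slc39a4 followed at 9.31 ± 0.869, Mtf1 at 2.11 ± 0.234 and Slc39a5 at 0.796 ± 0.241 CPM per kb (SD, n = 3 for each). In the iron-loaded mice the ranges of Mt2 and Mt1 overlapped (897 ± 238 and 637 ± 103 CPM per kb). Slc30a1 stood at 22.0 ± 5.63 CPM per kb, its range overlapping that of Slc39a1 at 18.1 ± 1.41, and Slc30a10 at 6.51 ± 0.169 was below Slc39a4 at 12.4 ± 3.12. The place of Slc30a10 beside Slc39a4 depended on the length used, since per kb of the longest transcript Slc30a10 was at 10.6 and Slc39a4 at 11.3 CPM per kb in control mouse 1. The order of Mt2 and Mt1 in Trad-KAPA also rests on the length, since the merged exons of Mt1 (1246 bases) cover its whole locus. In the control mice Mt2 stayed higher per kb of the longest transcript (1393 against 920 CPM per kb). The longest Mt1 transcript is itself 1085 bases long, so this length cannot tell whether the order holds for a shorter Mt1 transcript. Without division by length Mt1 was higher, at 998 against 712 CPM.

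The genes whose levels went most like those of the called members over the 12 libraries were found by Pearson’s r of log2(CPM + 1), centred within each kit, among 6719 genes with at least 10 CPM on average in both kits. The 12 libraries come from 6 mice and are not independent. For Slc30a10 these genes were Cyp2j6 (r = 0.98), Grb14 (0.97) and Prdx5 (0.96), and for Slc30a1 they were Aldoa, Ank and Polr3e (0.98 each). Because levels were not centred within each diet, diet changes of the same sign in these genes follow from how they were picked. Cyp2j6 had log2 diet changes of −0.77 and −0.47 in Trad-KAPA and 3’-LEXO, beside −1.06 and −0.77 for Slc30a10. Aldoa had 0.59 and 0.46, beside 0.56 and 0.34 for Slc30a1.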

How the data were processed

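Liver RNA of 6 mice was sequenced with both kits, as single-end reads of 50 bases. The authors aligned them to GRCm38 by STAR 2.5.3a, and the deposited values are raw counts of uniquely mapped exonic reads per gene, with duplicates kept; the counting program, its strand setting and the annotation release are not given in the sources used here. Of 27022 identifiers, 26949 matched GENCODE M21, which gave symbols, positions and lengths.

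CPM were computed from the deposited counts. The diets were compared within each kit by edgeR 4.0.16 (R 4.3.3, limma 3.58.1; quasi-likelihood test, TMM, filterByExpr, Benjamini-Hochberg over all genes tested, threshold 0.05), the interaction over all 12 libraries, and the kits with the mouse as a term. The diet fits within each kit were tested on simulated counts, and the interaction and kit fits were not. Alternatives were DESeq2 1.42.0, its size factors, no filter, 10000000 counts per library, a replicate block, each mouse left out, iron-loaded mice 2 and 3 summed and TMM-scaled CPM for overlap (both chosen after seeing the data) and another length. Python 3.11.15, pandas 2.3.3, numpy 2.4.6 and scipy 1.17.1 were used.

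Equal numbers in both kits name the same mouse: deviations from the group mean correlated across kits with r from 0.444 to 0.770. Depth limits genes with few reads, such as Slc39a5. All 8 members are named; other metal genes are named when called or low in both kits; context lists are given by counts of calls. The members and lists were chosen with earlier results of these data known. Mt4 was not analysed here.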

Additional observations from a re-analysis of the deposited data

How the results depend on the processing

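Each number below is a log2 fold change or a count of genes called at an adjusted p of 0.05, and the cause of a change with the setting was not tested unless fewer mice or other genes entered the fit. In Trad-KAPA 2255 genes were called in all, 1147 with iron-loaded mice 2 and 3 summed as 1 sample, and 841 to 2803 when 1 mouse was left out. In 3’-LEXO 811 were called, 2040 without the expression filter, 1313 by DESeq2, 436 with the replicate block, 445 with the mice summed, and 199 to 871 with 1 mouse left out. The interaction, with 0 calls, gave 7 without the filter and 5 with the mouse as a replicate block.

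The number of a mouse does not pair mice across diets: deviations of same-numbered mice correlated with r of −0.02 to 0.07 in Trad-KAPA, and of −0.17 to 0.10 in 3’-LEXO. With the replicate block Mt2 passed in Trad-KAPA (−0.51, adjusted p = 0.0428), Slc30a10 was −1.04 and Slc30a1 was 0.54, both still called, and no call of a member was lost.

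Changes near 0 turned their sign. In 3’-LEXO Mtf1 was −0.0275 without the filter and −0.00027 by DESeq2. With 1 mouse left out, Mtf1 lay between −0.0593 and 0.10 in Trad-KAPA, and in 3’-LEXO it lay between −0.20 and 0.19, and Slc39a1 between −0.33 and 0.00224. The interaction of Slc39a5 was 0.02 with DESeq2 size factors (0.02188) and by DESeq2 (0.02294), 0.0910 at 10000000 counts per library, 0.00522 with the mouse block and 0.01444 with the mice summed, which also gave 0.01327 for Mtf1 and −0.00986 for Slc39a1. Leaving out 1 mouse moved the interaction of Mt1 from −0.0712 to 0.0663, Mtf1 from −0.11 to 0.10, Slc39a1 from −0.15 to 0.16 and Slc39a5 from −0.24 to 0.44. The log2 kit ratio of Slc30a10 was −0.52 by CPM and 2.025 with Trad-KAPA per kb of merged exons or of the longest transcript, but the 0 of the latter scale is set by the choice of the kb as unit, so that its sign says nothing. DESeq2 and the fit without the filter also called Slc30a10 in 3’-LEXO (adjusted p = 0.0258 and 0.000338). Slc30a10 kept its direction in both kits in all 12 alternatives, as did Mt1, Mt2, Slc30a1, Slc39a4 and Slc39a5.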

Other observations

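Slc39a7, which carries zinc out of the endoplasmic reticulum and Golgi apparatus, had 37 to 94 reads per Trad-KAPA library and 0 to 4 reads per 3’-LEXO library. Of its 50-base stretches, 74.5% also occur in the overlapping gene Gm20427 on the same strand, which had 2 to 6 reads in the Trad-KAPA libraries and 0 in those of 3’-LEXO. Slc39a7 was chosen for mention after its values were seen.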
